A study of Mus musculus with 4 samples.

Results

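The Bcl2 family was followed through 4 sorted cell samples of the mouse small intestine. Its 10 genes were the apoptosis guardians Bcl2, Bcl2l1 and Mcl1, the effectors Bax and Bak1, the BH3-only genes Bid, Bcl2l11, Bik and Bad, and Bcl2l14. They were chosen by name among 16390 genes with a named probe, and a gene with several probes was represented by the one with the highest mean spot intensity over the 4 arrays. Of the 10 genes, 9 had a named probe, all 9 were above background on at least 1 array, and 6 (Bcl2, Bcl2l1, Mcl1, Bid, Bad and Bcl2l14) were above it on all 4. Bcl2l11 was above it on 2 arrays, Bak1 on 3 and Bik on 1. Expression of Bax, an effector, was not analysed here, and only its start region was counted below.

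Proteins of the Bcl2 family decide whether the outer membrane of the mitochondrion is opened, the step that commits a cell to apoptosis. Bax and Bak form the pores, guardians such as Bcl-2, Bcl-xL and Mcl-1 hold them in check, and BH3-only proteins, which share a single short helix with the rest of the family, bind the guardians or activate the effectors when a cell is damaged or starved of survival signals. In the intestinal epithelium, which is renewed continuously, apoptosis removes damaged crypt cells.

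Each group was 1 array of total RNA. Dclk1+ tumor cells were pooled from tumors of 7 mice older than 16 weeks, and Dclk1- tumor cells came from 1 mouse aged 17 weeks. Both carried the ApcMin allele, a germline Apc mutation that gives intestinal adenomas, beside 1 copy of the Dclk1CreERT2 allele. Dclk1+ normal epithelial cells were pooled from 2 mice and Dclk1- normal cells came from 1 mouse, all aged 26 weeks and with the Dclk1CreERT2 allele but without ApcMin. Every mouse was male, and each one carried the CreERT2 allele of Dclk1, the marker gene itself. Dclk1+ tumor cells were sorted by GFP, and the sources used here give no gate for the other 3 samples. The normal mice were older than the mouse with the Dclk1- tumor sample, and Dclk1+ samples were pools where Dclk1- samples were single mice, so age and ApcMin, or pooling and Dclk1, cannot be told apart. With 1 array a group there was no replicate and no test, and the 4 comparisons share arrays in pairs.

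Between 63.3% and 70.9% of probes were above background. Dclk1 itself had a normalised intensity of 61.8 in Dclk1+ tumor and 9.49 in Dclk1- tumor, against 736 in Dclk1+ normal and 180 in Dclk1- normal. The 15 tuft cell markers with a probe summed to 19562, 455, 84620 and 432 in the same order, with 14, 10, 15 and 12 of them above background. Tuft cells are the chemosensory cells that Dclk1 marks in the gut. Genes of other epithelial types were present in the Dclk1+ samples: 7 of 7 goblet markers and 10 of 10 enterocyte markers were above background on every array. In bulk samples, fewer cells of a type and less RNA per cell cannot be told apart.

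Levels are given as the authors' normalised intensities, which are linear, have a median close to 25 over the listed probes of each array and leave dim probes unlisted. Differences are log2 differences after background correction and quantile normalisation of the scanner intensities. An offset of 50 in that correction shrinks differences of dim genes towards 0, so their folds can be larger in the normalised intensities. These intensities also carry a shift of the median gene between arrays, of 0.33 log2 between Dclk1+ and Dclk1- tumor cells. Folds of brighter genes were larger or smaller there. Between these cells Mcl1 was at 1.92-fold against 1.52-fold, and Birc5, which was lower in Dclk1+ cells, at 1.87-fold against 2.21-fold. A gene was counted as higher or lower from 2-fold on, where it was above background on 1 or both of the arrays compared.

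Bcl2l14 and Bad were the 2 members that differed 2-fold in at least 1 comparison. They and Mcl1 had higher values in the Dclk1+ sample of each tissue and lower values in tumor than in normal in both cell populations. Bcl2l14 was higher by 3.24 in tumor and 4.56 in normal on the log2 scale, Bad by 0.99 and 1.04, and Mcl1 by 0.61 and 0.79. The tumor value of Bcl2l14 turned to -0.53 when the local background of the scanner was subtracted. The remaining 6 members were dim, with normalised intensities of at most 73.2, and on the log2 scale, where the offset compresses dim genes, none of them differed 2-fold. Bid came nearest, at 0.55 between Dclk1+ and Dclk1- normal cells and -0.63 between tumor and normal Dclk1+ cells, sizes like those of Mcl1, and its normalised intensities spanned 4.32-fold over the 4 arrays.

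**Figure D1:**
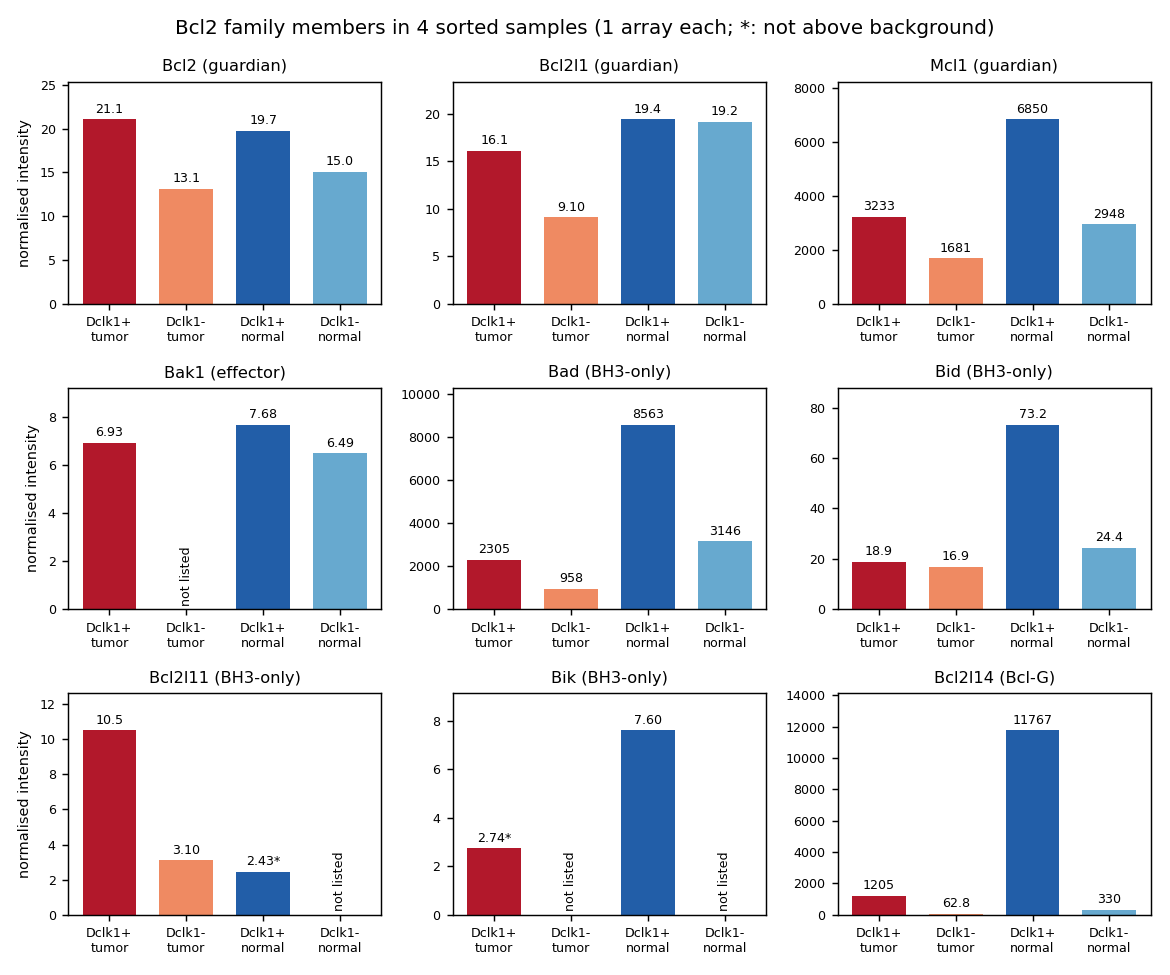
Normalised intensity of 9 Bcl2 family genes, 1 panel a gene with its own axis from 0, in tumor cells (Dclk1+, then Dclk1-) and in normal cells (Dclk1+, then Dclk1-); each bar is 1 array, an asterisk marks a listed value not above background, and "not listed" marks an empty cell of the authors' table. Bcl2l14 stood at 11767 in Dclk1+ normal cells and at 62.8 in Dclk1- tumor cells, and Bad and Mcl1 were also highest in Dclk1+ normal and lowest in Dclk1- tumor cells.

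The start regions of these 3 genes, which differed in the same direction in all 4 comparisons, are shown from RefSeq on build GRCm38.p6, from 250 bases before to 50 bases after the transcription start, with CG dinucleotides in capitals. Bcl2l14 has a pair of annotated starts, at chr6:134396079-134396378 and chr6:134414178-134414477, Mcl1 is at chr3:95658471-95658770 and the first of the Bad starts at chr19:6941611-6941910, all on the plus strand.
Bcl2l14, upstream start: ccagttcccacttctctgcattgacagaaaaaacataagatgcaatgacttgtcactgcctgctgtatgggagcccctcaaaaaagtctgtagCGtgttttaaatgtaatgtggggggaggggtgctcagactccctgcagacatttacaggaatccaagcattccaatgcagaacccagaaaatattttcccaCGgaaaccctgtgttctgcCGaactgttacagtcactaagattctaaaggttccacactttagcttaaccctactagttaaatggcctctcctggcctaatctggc
Bcl2l14, downstream start: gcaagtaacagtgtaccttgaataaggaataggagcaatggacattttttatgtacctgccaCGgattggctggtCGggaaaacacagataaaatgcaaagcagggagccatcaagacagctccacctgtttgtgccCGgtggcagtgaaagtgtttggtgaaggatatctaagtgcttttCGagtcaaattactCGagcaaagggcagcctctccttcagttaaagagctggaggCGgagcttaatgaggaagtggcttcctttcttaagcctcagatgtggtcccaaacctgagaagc
Mcl1: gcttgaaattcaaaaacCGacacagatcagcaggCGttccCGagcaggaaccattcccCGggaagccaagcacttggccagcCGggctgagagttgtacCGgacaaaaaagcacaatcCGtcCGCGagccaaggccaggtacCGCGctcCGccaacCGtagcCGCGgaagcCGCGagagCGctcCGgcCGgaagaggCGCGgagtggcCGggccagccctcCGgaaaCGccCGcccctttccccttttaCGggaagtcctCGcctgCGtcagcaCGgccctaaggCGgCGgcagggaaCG
Bad, upstream start: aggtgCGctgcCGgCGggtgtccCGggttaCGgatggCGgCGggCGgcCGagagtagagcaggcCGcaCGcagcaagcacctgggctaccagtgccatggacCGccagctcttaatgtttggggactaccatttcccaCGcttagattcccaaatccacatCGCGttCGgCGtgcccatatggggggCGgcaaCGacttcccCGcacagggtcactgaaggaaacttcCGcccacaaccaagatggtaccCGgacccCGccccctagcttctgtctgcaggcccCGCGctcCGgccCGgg

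The Bcl2l14 windows held 3 and 6 CG dinucleotides and were 45.7% and 47.3% G or C. The windows of Mcl1 and Bad held 33 and 27 CG dinucleotides, both at 65.7% G or C. Over 32851 promoter windows of 27025 genes the median was 7 CG dinucleotides (quartiles 3 and 20) and 52.7% G or C, so Bcl2l14 lay below the median and the other 2 above the upper quartile. The 3 genes therefore had unlike start regions although they differed in the same direction. The 9 family genes matched to 14 windows include Bax and not Bik, unlike the 9 with a probe. Across these windows, 1 start of Bcl2l1 also held few CG dinucleotides (1), and the remaining windows held from 11 in Bak1 to 44 in Bcl2.

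Short motifs were searched on both strands of the same windows. The octamer ATGCAAAT, bound by POU factors such as the tuft cell factor Pou2f3, was in 0 of the 14 family windows and in 1.74% of all windows. The motif CTTTGAT of TCF/LEF factors, the nuclear arm of Wnt signalling, was in 0 of 14 and in 3.73% of all windows. The GC box GGGCGG was in 7 of 14 family windows, Mcl1 and the upstream start of Bad among them, and in 35.7% of all windows. CCAAT was in 5 of 14, including both Bcl2l14 windows, and in 37.4% of all windows. These matches describe letters in a window and not bound sites.

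Among the guardians, Mcl1, a short-lived protein that crypt cells of the mouse need for survival, had normalised intensities of 3233 in Dclk1+ tumor and 1681 in Dclk1- tumor, against 6850 in Dclk1+ normal and 2948 in Dclk1- normal. The order of the 4 samples put both normal samples above the tumor sample of the same sort, and Dclk1+ tumor and Dclk1- normal were near each other (log2 values of 11.32 and 11.20). The log2 difference between Dclk1+ and Dclk1- cells was 0.61 in tumor and 0.79 in normal, and that between tumor and normal was -0.67 in Dclk1+ and -0.49 in Dclk1- cells. None reached 2-fold. In the normalised intensities, which are not level between arrays, Mcl1 reached 2.32-fold for Dclk1+ over Dclk1- in normal and was 2.12-fold lower in tumor than in normal Dclk1+ cells. The only spread within these arrays is that between probes of the same gene, which is technical and holds nothing of the spread between mice, with an SD of 0.39 between sorts within tumor and 0.79 within normal epithelium, and of 0.51 between tissues within Dclk1+ cells and 0.71 within Dclk1- cells. Mcl1 lay beyond that SD between sorts within tumor and between tissues within Dclk1+ cells.

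Bcl2, the founding guardian, and Bcl2l1, which encodes Bcl-xL, were dim. Bcl2 had 21.1 in Dclk1+ tumor and 13.1 in Dclk1- tumor, against 19.7 in Dclk1+ normal and 15.0 in Dclk1- normal, and its log2 differences lay between 0.03 and 0.09. Bcl2l1 had 16.1 and 9.10 in the tumor samples and 19.4 and 19.2 in the normal samples, Dclk1+ before Dclk1-, with log2 differences between -0.12 and 0.09. The offset compresses such values: the largest ratio of normalised intensities over the 4 arrays was 1.61 for Bcl2 and 2.13 for Bcl2l1, which was 2.11-fold lower in tumor than in normal Dclk1- cells in these units. A second Bcl2 probe, which was dimmer and reached 9.72 in Dclk1- tumor, had log2 differences between -0.17 and 0.18.

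Bak1, the effector with a probe, was close to background. It had 6.93 in Dclk1+ tumor and was not above background in Dclk1- tumor, against 7.68 in Dclk1+ normal and 6.49 in Dclk1- normal. The bound this sets is small, since Bak1 was at least 1.04-fold higher in Dclk1+ than in Dclk1- tumor cells. This bound is set on values with the offset of 50. With the blank spots' mean subtracted and no offset, the log2 difference of Bak1 in tumor was 1.34, and in the authors' values 1.76, with the unlisted sample at the array's lowest listed value.

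Of the BH3-only genes, Bad, whose protein neutralises Bcl-2 and Bcl-xL until survival kinases phosphorylate it, was bright on all 4 arrays. It had 2305 in Dclk1+ tumor and 958 in Dclk1- tumor, against 8563 in Dclk1+ normal and 3146 in Dclk1- normal. Both normal samples were above both tumor samples, and within each tissue the Dclk1+ sample was the higher. On the log2 scale Bad was higher in Dclk1+ cells by 0.99 in tumor, just under 2-fold, and by 1.04 in normal, just over it. Between tumor and normal the difference was -1.46 in Dclk1+ and -1.41 in Dclk1- cells. All 4 differences were beyond the SD between probes. The difference between Dclk1+ and Dclk1- cells was nearly the same in both tissues, the tumor value minus the normal value being -0.05.

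Bid, which caspase-8 cleaves to link death receptors to mitochondria, had 18.9 in Dclk1+ tumor and 16.9 in Dclk1- tumor, against 73.2 in Dclk1+ normal and 24.4 in Dclk1- normal. Dclk1+ normal cells stood apart from the other 3 samples. The ratio of normalised intensities was 3 for Dclk1+ over Dclk1- normal, and the log2 difference, which the offset compresses, was 0.55, within the SD between probes in that comparison (0.79). Between tumor and normal Dclk1+ cells it was -0.63, beyond the SD there (0.51).

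Bcl2l11, which encodes Bim, an activator that binds all guardians, had 10.5 in Dclk1+ tumor and 3.10 in Dclk1- tumor. It was listed at 2.43 in Dclk1+ normal, below background, and unlisted in Dclk1- normal. The ratio within tumor was 3.39, at a log2 difference of 0.12. It was thus above background in the tumor samples alone, with a bound of at least 1.12-fold higher in tumor than in normal Dclk1+ cells and 1.02-fold in Dclk1- cells. The Dclk1- tumor spot (26.1) was close to the cut, as that array's blank spots had a mean of 23 and an SD of 1.33. At a cut of 3 SD it was below background. With the local background subtracted, Bcl2l11 was at -0.00 for tumor against normal in Dclk1+ cells and -0.03 in Dclk1- cells. Bik, a BH3-only protein of the endoplasmic reticulum, was above background in Dclk1+ normal alone, at 7.60. Its listed value in Dclk1+ tumor was 2.74 and both Dclk1- samples were unlisted, and the bound was at least 1.05-fold higher in Dclk1+ than in Dclk1- normal cells.

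Bcl2l14 encodes Bcl-G, a family member that carries a BH3 region and is less studied than the others; the short human form kills cells in culture when overexpressed. It had normalised intensities of 1205 in Dclk1+ tumor and 62.8 in Dclk1- tumor, against 11767 in Dclk1+ normal and 330 in Dclk1- normal. Both Dclk1+ samples were above both Dclk1- samples, and in each sort the tumor sample was the lower. Over the 4 arrays the highest level was 187 times the lowest, the widest range of the 9 members, followed by 8.94 for Bad.

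Between Dclk1+ and Dclk1- cells, Bcl2l14 differed by 3.24 in tumor, which placed it at rank 16 of 12197 genes, and by 4.56 in normal, at rank 20 of 12844. The ratio of normalised intensities was 19.2 in tumor and 35.7 in normal. Bcl2l14 was thus near the top of the array in both tissues, from arrays that the 2 comparisons do not share. Between tumor and normal it differed by -2.84 in Dclk1+ cells, the 3rd lowest of 12869 genes, and by -1.53 in Dclk1- cells, rank 301 from the bottom of 12340. The difference between Dclk1+ and Dclk1- cells was smaller in tumor than in normal, the tumor value minus the normal value being -1.32, with -0.90 in the authors' values and -4.73 with the local background subtracted, which was not tested.

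The Bcl2l14 spot lay in bright surroundings. The scanner's local background beside it was 878 in Dclk1+ tumor and 74.7 in Dclk1- tumor, against 3588 in Dclk1+ normal and 188 in Dclk1- normal, and the spot itself was 0.928, 1.16, 1.95 and 1.58 times that value. In Dclk1+ tumor the spot was therefore no brighter than its surroundings. Among genes brighter than 10 times the mean of the blank spots, 2.23% of 1880 were at or below their local background in Dclk1+ tumor, 4.47% of 2190 in Dclk1- tumor, 0% of 2045 in Dclk1+ normal and 0.0923% of 2166 in Dclk1- normal. Their median spot was 2.07, 1.67, 3.96 and 3.73 times its local background in the same order, lower in both tumor samples. Mcl1 was at 1.93, 1.64, 5.75 and 16.8 times, and Bad at 4.51, 2.54, 10.2 and 20.8. The part of this in differences between tumor and normal was not tested. With the local background subtracted, Bcl2l14 was at -0.53 for Dclk1+ against Dclk1- in tumor, the opposite sign, and at 4.20 in normal. The same subtraction gave -5.67 for tumor against normal in Dclk1+ cells and -0.94 in Dclk1- cells. Over all probes the local background followed the spots (correlation of the logs from 0.924 to 0.98), which is why it was not subtracted here. The tumor value of Bcl2l14 between Dclk1+ and Dclk1- cells thus rests on that choice, and the normal value stayed at 4.20 or above.

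**Figure D2:**
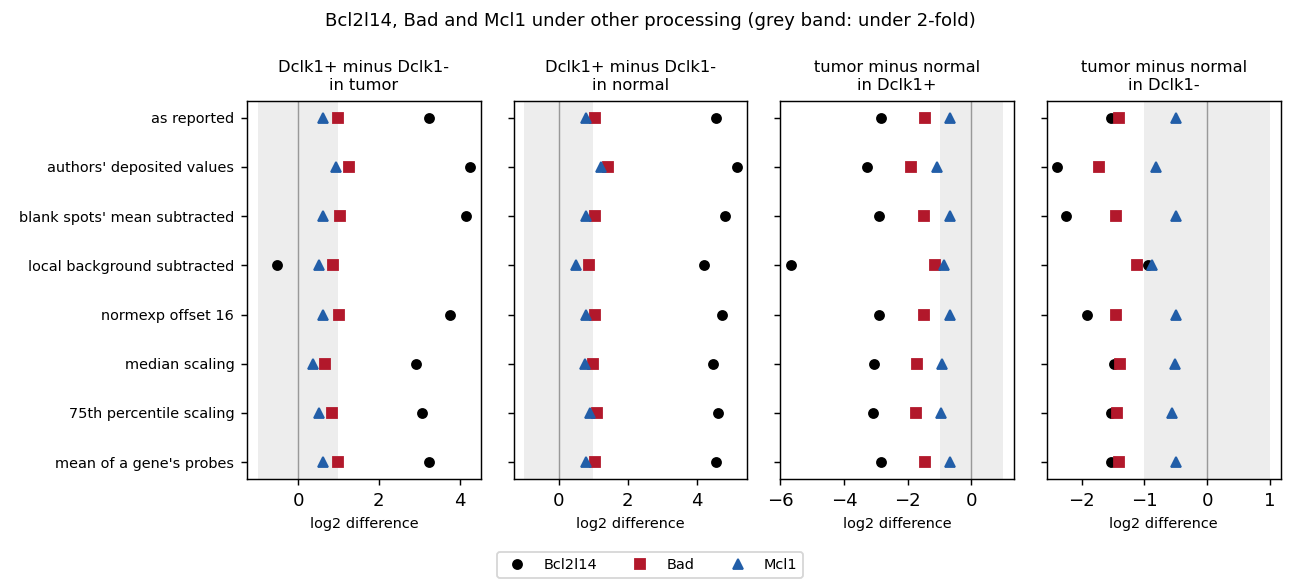
Log2 differences of Bcl2l14, Bad and Mcl1 in the 4 comparisons under 8 ways of processing, 1 row each, with differences under 2-fold in the grey band; each point is a difference between 2 arrays. The values of Bad and Mcl1 keep their sign throughout, and Bcl2l14 changes sign in tumor (-0.53) when the local background is subtracted. Each of these genes has 1 probe, so the mean of a gene's probes repeats the reported values.

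The median tuft cell gene differed by 2-fold or more, in the direction of Bcl2l14, in 3 of the 4 comparisons. In tumor, 9 of 14 tuft genes were at least 2-fold higher in Dclk1+ cells and 0 lower, with a median log2 difference of 2.27, and in normal epithelium 12 of 15 were higher and 0 lower, with a median of 4.57. Between tumor and normal Dclk1+ cells, 10 of 15 were lower and 0 higher, with a median of -1.56. Between tumor and normal Dclk1- cells, where Bcl2l14 was at -1.53, 2 of 12 tuft genes were higher and 1 lower, with a median of -0.04. The enterocyte and goblet lists had medians of -1.65 and -1.26 between Dclk1+ and Dclk1- tumor samples and of -2.91 and -5.36 between the normal samples. The part of these lists in the values of Bcl2l14, Bad and Mcl1 was not tested.

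Counted over the family, 1 of 8 members above background was at least 2-fold higher in Dclk1+ than in Dclk1- tumor cells (Bcl2l14) and 0 lower, against 1.76% and 2.13% of all genes. In normal epithelium 2 of 8 were higher (Bcl2l14 and Bad) and 0 lower, against 5.66% and 5.92%. For tumor against normal in Dclk1+ cells 0 of 9 were higher and 2 lower (Bcl2l14 and Bad), against 4.27% and 4.20%, and in Dclk1- cells 0 of 8 were higher and 2 lower, the same genes, against 5.83% and 5.24%. The median member was at 0.12, 0.32, -0.07 and -0.11 in these comparisons, and the median gene at 0.01, 0.01, -0.03 and -0.02. In the authors' deposited table no offset is added and the median gene is shifted between arrays. The shares of all genes there were 18.2% higher and 11.2% lower in the tumor comparison and 23.3% and 16% in the normal one. They were 13.5% higher and 27.2% lower for tumor against normal in Dclk1+ cells and 14.6% and 29.2% in Dclk1- cells. With median scaling, the shares in the tumor comparison were 1.17% higher and 3.61% lower.

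By a measure of likeness over the 4 arrays (the distance between log2 values centred on each gene's mean, among 9634 genes above background on all arrays), the genes most like Bcl2l14 were Inpp5j, an inositol polyphosphate phosphatase (distance 0.79, Pearson's r 0.985), Tm4sf4, a tetraspan membrane protein (0.86, r 0.982), Oas2, an interferon-induced oligoadenylate synthetase (1.17, r 0.983), Fam221a (1.18, r 0.969) and Nrgn, neurogranin, a calmodulin-binding protein (1.38, r 0.984). None of the 5 was in the tuft list, of which only 10 of 15 genes with a probe were above background on all arrays and open to this search. Inpp5j had 2423 in Dclk1+ tumor and 100 in Dclk1- tumor, against 11010 in Dclk1+ normal and 371 in Dclk1- normal. Tm4sf4 had 11862 and 456 in the tumor samples and 53903 and 2709 in the normal samples, Dclk1+ before Dclk1-. That both Dclk1+ samples lay above both Dclk1- samples, as with Bcl2l14, follows from how these genes were chosen. The correlations are over 4 arrays and describe only the shape of the profiles.

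Of 16 other Bcl2 family genes, 11 had a named probe and 9 were above background, all 9 on all 4 arrays; Bmf and Bcl2l10 were below it throughout. Bcl2l2, the guardian Bcl-w, was the one that most resembled Mcl1 between sorts, with 633 in Dclk1+ tumor and 304 in Dclk1- tumor, against 705 in Dclk1+ normal and 296 in Dclk1- normal. Its log2 differences were 0.73 in tumor and 0.82 in normal, and 0.13 and 0.22 between tumor and normal in Dclk1+ and Dclk1- cells. Its tumor and normal values thus lay close together, which set it apart from Bad.

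Bok, a relative of Bax and Bak that can permeabilise mitochondria, had 460 in Dclk1+ tumor and 518 in Dclk1- tumor, against 7.04 in Dclk1+ normal and 168 in Dclk1- normal. Both tumor samples were above both normal samples, by log2 differences of 2.79 in Dclk1+ and 1.54 in Dclk1- cells. In normal epithelium it was lower in Dclk1+ cells (-1.68), and in tumor the difference was -0.43. Bok was thus opposite in sign to Bad in all 4 comparisons.

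Bcl2a1c, of the A1 genes known from leukocytes, had 191 in Dclk1+ tumor and 533 in Dclk1- tumor, against 105 in Dclk1+ normal and 57.5 in Dclk1- normal. Within tumor it was lower in the Dclk1+ sample (-1.49) and higher in tumor than in normal Dclk1- cells (2.52). The A1 genes are near-identical copies, so its probe may read several of them. The 14 genes of the myeloid list with a probe summed to 2120 and 4952 in the tumor samples and to 2093 and 728 in the normal samples, Dclk1+ before Dclk1-. This sum was also highest in Dclk1- tumor cells and lowest in Dclk1- normal cells. Of these 14 genes 12, 12, 11 and 11 were above background, while Itgam and Adgre1, markers of myeloid cells and macrophages, were below it on all 4 arrays. Single genes did not all follow the sum. Within tumor, 4 of 12 were at least 2-fold lower in the Dclk1+ sample and 2 of 12 were above 0. Ptprc (168.5) and Cd68 (45.9) were highest in Dclk1+ normal cells, and Csf1r (34.4) was lowest in Dclk1- tumor cells. The part of the myeloid signal in the Bcl2a1c values was not tested.

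Pmaip1, which encodes the Mcl-1 antagonist Noxa, had 41.1 in Dclk1+ tumor and 62.5 in Dclk1- tumor, against 34.3 in Dclk1+ normal and 168 in Dclk1- normal. Its highest value was in Dclk1- normal cells, and the log2 difference in normal epithelium was -1.27. Bbc3, which encodes Puma, was between 5.46 and 11.7, Bcl2l12 between 14.4 and 31.4, and Bcl2l13 between 3.33 and 13.1. Bcl2l15, which encodes Bfk, was between 5.21 and 22.3 with its lowest value in Dclk1+ tumor, and Bnip3l, a mitophagy receptor, between 53.2 and 98.4. None of these 5 differed 2-fold on the log2 scale with the offset. The normalised intensities of Bbc3, Bcl2l12, Bcl2l13 and Bcl2l15 spanned more than 2-fold over the 4 arrays, and those of Bnip3l less. Over the 9 genes, 0 were higher and 1 lower in the Dclk1+ sample of tumor, and 0 and 2 in normal. Between tumor and normal, 1 was higher and 0 lower in Dclk1+ cells, and 2 and 0 in Dclk1- cells. Over all genes, 1.76% were higher and 2.13% lower in the tumor comparison, and 5.66% and 5.92% in the normal one. Between tissues the shares were 4.27% and 4.20% in Dclk1+ and 5.83% and 5.24% in Dclk1- cells. Among 9 genes, counts this small say little of the list.

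**Figure D3:**
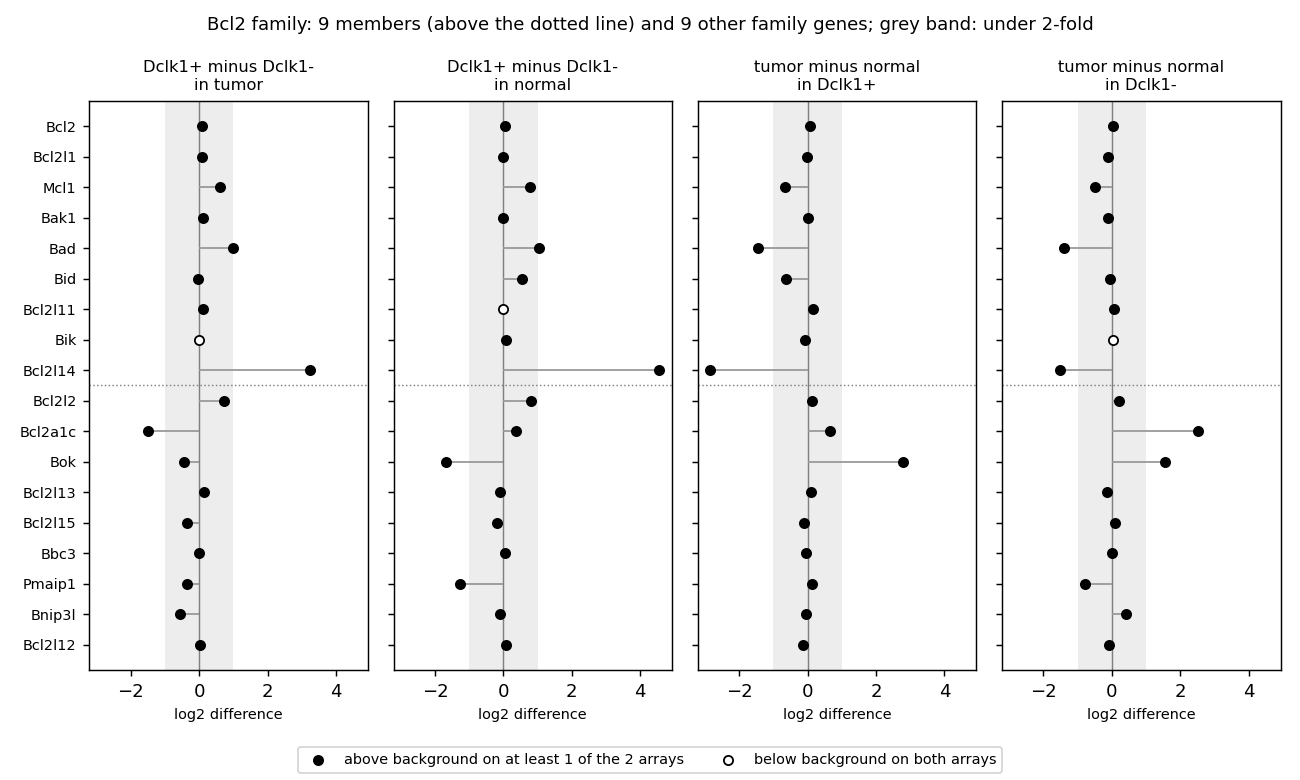
Log2 differences of 9 Bcl2 family members (above the dotted line) and 9 other family genes in the 4 comparisons; filled points exceeded background on 1 or both arrays compared, open points on neither, and the grey band holds differences under 2-fold. Bcl2l14 reaches 4.56 for Dclk1+ minus Dclk1- in normal epithelium, and Bok, at 2.79 for tumor minus normal in Dclk1+ cells, lies on the other side from Bcl2l14 and Bad.

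Downstream of the family, 4 of 13 caspase and apoptosome genes were lower, by 2-fold or more, in Dclk1+ cells of normal epithelium, and 0 higher, with a list median of -0.63, against 5.92% lower and 5.66% higher over all genes. They were Cycs, the cytochrome c that leaves permeabilised mitochondria (-1.76), Casp4, an inflammatory caspase (-1.55), Apaf1, the scaffold of the apoptosome (-1.38), and Casp8, the initiator caspase of death receptors (-1.18). Cycs had 461 in Dclk1+ tumor and 426 in Dclk1- tumor, against 781 in Dclk1+ normal and 2280 in Dclk1- normal. Dclk1- normal cells were the one high sample for Apaf1 too, with 48.0 and 26.8 in the tumor samples and 47.9 and 217 in the normal ones, Dclk1+ before Dclk1-. In tumor 0 of 14 genes were higher and 0 lower, against 1.76% and 2.13% of all genes. A count of 0 among 14 thus says little of the list. The same 4 genes, of 12 above background, were lower in tumor than in normal Dclk1- cells (Cycs -2.02, Apaf1 -1.54, Casp8 -1.17 and Casp4 -1.09). Over all genes 5.24% were lower there, and that comparison uses the same Dclk1- normal array.

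Among 6 inhibitors of apoptosis above background, Birc5 was the only one that differed 2-fold in any comparison. Birc5 encodes survivin, which also serves chromosome segregation and is a marker of dividing cells. It had 543 in Dclk1+ tumor and 1018 in Dclk1- tumor, against 125 in Dclk1+ normal and 2160 in Dclk1- normal. It was lower in Dclk1+ cells in tumor (-1.14) and in normal (-3.63), and for tumor against normal it was at 1.75 in Dclk1+ and -0.74 in Dclk1- cells. The cycling list summed to 1407 and 2194 in the tumor samples and 426 and 3404 in the normal samples, Dclk1+ before Dclk1-. This sum holds Birc5 itself as a large part, so its order of the samples is not separate from that of Birc5. Between Dclk1+ and Dclk1- tumor cells, 3 of 8 cycling genes were above 0, Mki67 (0.28) and Top2a (0.33) among them. The part of the cycling list in the Birc5 values was not tested.

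Of the death receptor and necroptosis genes, 0 of 13 differed 2-fold between Dclk1+ and Dclk1- cells in tumor and 0 of 13 in normal. Over all genes 1.76% were higher and 2.13% lower in tumor and 5.66% and 5.92% in normal, so a count of 0 among 13 says little of the list. Tradd, the adaptor of TNF receptor 1, had 83.2 in Dclk1+ tumor and 158 in Dclk1- tumor, against 535 in Dclk1+ normal and 696 in Dclk1- normal, and was lower in tumor in both sorts (-1.75 in Dclk1+ and -1.63 in Dclk1- cells). It was the only one of the list to differ 2-fold between tumor and normal.

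Of the p53 list, 0 of 15 genes differed 2-fold between Dclk1+ and Dclk1- cells in tumor and 0 of 16 in normal, and between tissues 1 was higher and 2 lower, of 15 in Dclk1+ and of 16 in Dclk1- cells. Over all genes, 1.76% were higher and 2.13% lower in tumor, and 5.66% and 5.92% in normal. Between tissues the shares were 4.27% higher and 4.20% lower in Dclk1+ cells, and 5.83% and 5.24% in Dclk1- cells. Counts this small say little of the p53 list. Cdkn1a, the cell cycle inhibitor p21, had 607 in Dclk1+ tumor and 256 in Dclk1- tumor, against 3284 in Dclk1+ normal and 1203 in Dclk1- normal. It was lower in tumor (-1.87 in Dclk1+ and -1.80 in Dclk1- cells), and its values for Dclk1+ against Dclk1- were 0.88 in tumor and 0.96 in normal, the same 4 signs as Bad. Gadd45a, a growth arrest gene, was also lower in tumor (-1.04 and -1.39). Phlda3, a p53-induced repressor of Akt, was on the other side, with 326 in Dclk1+ tumor and 237 in Dclk1- tumor, against 4.43 in Dclk1+ normal and a level not above background in Dclk1- normal. Its log2 difference was 2.42 in Dclk1+ cells, and in Dclk1- cells it was at least 4.77-fold higher in tumor.

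Among 28 partners of Bcl2 proteins and regulators of BH3-only genes, Vdac3, a channel of the outer mitochondrial membrane, was the one at least 2-fold higher in Dclk1+ cells of both tissues. It had 11921 in Dclk1+ tumor and 4167 in Dclk1- tumor, against 47041 in Dclk1+ normal and 4300 in Dclk1- normal, with log2 differences of 1.16 and 3.04. Its relative Vdac1 was at -1.28 in normal. Egln3, an oxygen-sensing prolyl hydroxylase, was lower in the Dclk1+ sample of tumor (-1.35) and higher in tumor than in normal cells (1.05 in Dclk1+ and 1.91 in Dclk1-).

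Ddit3, which encodes the stress factor CHOP, an inducer of Bim, had 949 in Dclk1+ tumor and 532 in Dclk1- tumor, against 2145 in Dclk1+ normal and 3817 in Dclk1- normal. It was lower in tumor than in normal Dclk1- cells (-2.50), and for Dclk1+ against Dclk1- it was at 0.56 in tumor and -1.27 in normal. Slc25a4, a mitochondrial ADP/ATP carrier, was higher in tumor (1.72 in Dclk1+ and 1.80 in Dclk1- cells). Mfn2, a mitochondrial fusion protein, was lower (-1.89 and -1.61), as was Tmbim1, of the Bax inhibitor family (-1.52 and -1.37). Its relative Tmbim4 was at -1.33 for tumor against normal in Dclk1- cells.

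**Figure D4:**
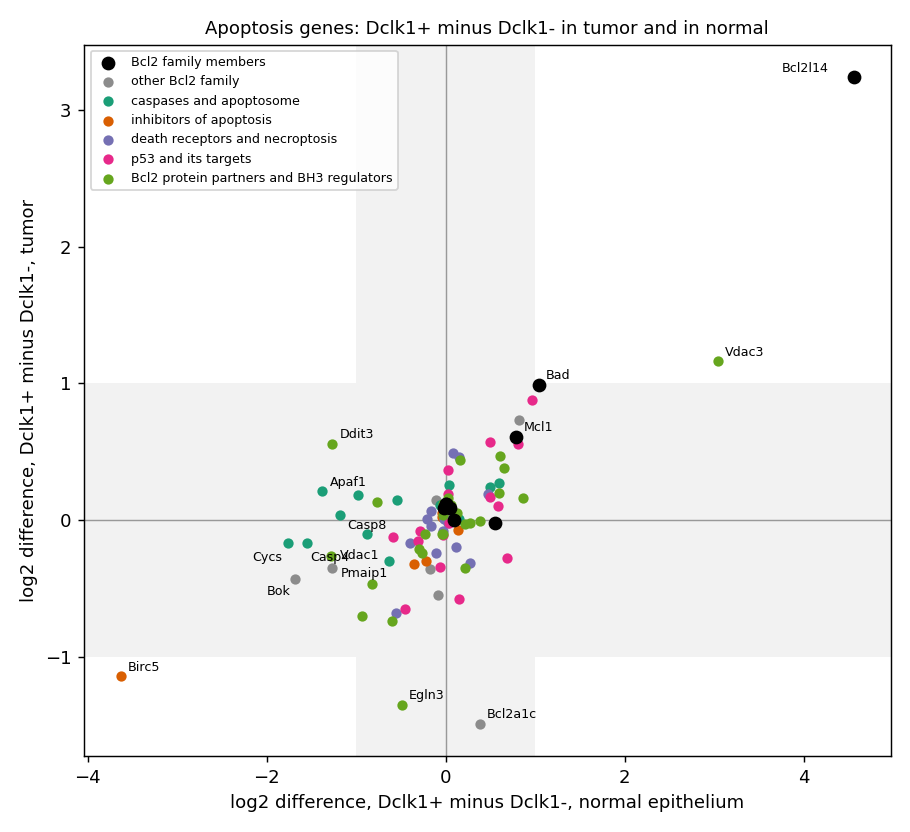
Log2 difference between Dclk1+ and Dclk1- cells in tumor (vertical axis) against that in normal epithelium (horizontal axis) for Bcl2 family genes and 5 lists of apoptosis genes above background; each point is 1 gene, and the grey bands hold differences under 2-fold. Bcl2l14 (3.24 in tumor, 4.56 in normal) and Vdac3 (1.16 and 3.04) lie at the upper right, Birc5 (-1.14 and -3.63) at the lower left, and most points are close to 0 on both axes.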

How the data were processed

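Each sample was hybridised to 1 one-colour (Cy5) array. Per the file headers, the deposited scanner files hold linear intensity values, a median for the spot and another for its surroundings, and scans of several gains were joined by linear fits. The authors also deposited normalised intensity values, with dim probes left empty; their scale is not stated, and against the scanner values they are linear. Their column medians are near 25, and between arrays the median gene differs by 0.33, 0.24, -0.37 and -0.45 log2 in the 4 comparisons, as the text orders them.

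Spot intensities (23473 probes, 2736 blank spots) were corrected with normexp (offset 50, local background not subtracted) and quantile normalised with limma 3.58.1 in R 4.3.3. These steps were also run on simulated arrays with some raised probes, a check that left out the subtraction of local background. Flagged spots, 3 in Dclk1- tumor and 1 in Dclk1- normal, were left out. A spot above the blank spots' mean plus 2 SD was above background. Where a probe was not, the bound took the lowest signal above background on that array. Symbols were updated to the RefSeq table of GRCm38.p6 (12622 current, 3947 updated and 62 kept of 16631). No source used here names the build of the array design.

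With 1 array a group no test was possible; sizes, ranks and shares over all genes are given, and precision is limited by the number of arrays. Named genes are all members, every other family gene with a probe, and from each other list up to 4 genes of at least 2-fold in each direction, by size, with the 5 genes most like Bcl2l14. The members and lists were chosen with earlier results of these data known. Alternatives were the authors' values, blank subtraction, local background subtraction, an offset of 16, median and 75th percentile scaling, thresholds of 1.5-fold and 4-fold, 3 SD, no filter, and the mean of a gene's probes.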

Additional observations from a re-analysis of the deposited data

Results flagged for a closer look

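Ddit3 had opposite signs in the 2 tissues, at 0.56 for the Dclk1+ sample against the Dclk1- sample of tumor and at -1.27 for those of normal epithelium, a difference of 1.82 on the log2 scale that was not tested. Birc5 had opposite signs in the 2 sorts, at 1.75 for tumor against normal in Dclk1+ cells and -0.74 in Dclk1- cells, a difference of 2.49 that was not tested either. The second Bcl2 probe, which the comparisons do not use, was above background on 3 of 4 arrays, with its highest level of 9.72 in Dclk1- tumor cells, where the probe used stood at 13.1.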

How the results depend on the processing

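Over 9 alternatives that change the value itself or its filter, Bad and Mcl1 kept their sign in all 4 comparisons. The 3 SD filter and no filter leave the values as they are, and so does the mean of a gene's probes for genes with 1 probe, as both are. Their signs could thus change only in the other settings. Bad lay between 0.68 and 1.27 between the sorts of tumor, 0.89 and 1.44 between those of normal epithelium, -1.89 and -1.14 for tumor against normal in Dclk1+ cells and -1.72 and -1.12 in Dclk1- cells. Bcl2l14 reversed in 1 place, to -0.53 for Dclk1+ against Dclk1- in tumor with the local background subtracted. The members counted as at least 2-fold higher in Dclk1+ tumor cells were 4 in the authors' values and with the blanks' mean subtracted (Bad, Bak1, Bcl2l11 and Bcl2l14), 0 with the local background subtracted, 2 with an offset of 16 and 3 from 1.5-fold. Of all genes, 18.2%, 11%, 3.18%, 3.33% and 5.57% were higher in these settings, in this order. Those higher in Dclk1+ normal cells were 5 in the authors' values, 4 with the blanks subtracted, and 1 with the local background subtracted, with median scaling or from 4-fold. The shares of all genes there were 23.3%, 17.1%, 4.39%, 5.03% and 1.61%. For tumor against normal in Dclk1+ cells, 1 (Bcl2l11) was higher in the authors' values and with the blanks subtracted, against 13.5% and 15.5% of all genes. Members lower there were 5 in the authors' values, 4 with the blanks subtracted, 3 with an offset of 16, 4 from 1.5-fold and 1 from 4-fold. The shares of all genes were 27.2%, 18.5%, 6.88%, 9.72% and 0.42%. In Dclk1- cells 4 were lower in the authors' values, 3 with the blanks subtracted, 1 with the local background subtracted and 0 from 4-fold. Of all genes, 29.2%, 18.7%, 5.45% and 1.3% were lower in these settings. The members' median was 1.11, 1.33, -1.08 and -0.94 in the authors' values in the 4 comparisons, and with the blanks subtracted 0.83 in tumor and -0.68 for tumor against normal in Dclk1+ cells. Both settings lack the offset, and the authors' values also carry the shift of the median gene between arrays; Mcl1 entered the counts in the authors' values (1.22 in normal and -1.08 for tumor against normal in Dclk1+ cells) and not with the blanks subtracted (0.80 and -0.68). The cause was not tested. Scaling to the 75th percentile moved the median gene to 0.13 and 0.14 between the sorts of tumor and of normal epithelium. No paired analysis was possible because each group has 1 array.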
